A study of Mus musculus with 6 samples.

Results

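Cholesterol synthesis enzymes were followed in the duodenum of VDR-null mice, which lack the vitamin D receptor, and of wild-type mice. The set was listed by name as Hmgcs1, Mvk, Idi1, Fdps, Fdft1, Sqle, Lss, Cyp51 and Hsd17b7, and a gene was included when the platform annotation paired a probe set with its symbol alone. This held for 8 of the 9 enzymes, of 22180 genes with such a probe set, and each of the 8 had 1 probe set. Idi1 shares its probe set with a second annotated symbol and was not analysed here.

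RNA came from 3 duodenum samples of VDR-null and 3 of wild-type mice, all 10 weeks old and of the C57Bl/6 background, and each was hybridised to 1 Affymetrix Mouse Gene 2.0 ST array. The labels do not say that the samples of a genotype came from separate mice, so p-values measure only the spread between these samples. The values are log2 signals, so a difference of 1 is a doubling, and levels of different genes are not compared because each probe set has its own brightness. Which part of Vdr the null allele lacks, the diet, the time since the last meal and the sex of the mice are not stated in the labels. Of all genes, 13174 were bright enough to be tested, with at least 3 of the 6 arrays above 5.17, the median of all values, and all 8 enzymes passed. All 8 listed genes of the duodenal epithelium, among them Pdx1, Cdx2 and Krt20, were also tested. Of 6 liver genes, Ttr (7.82 to 8.43 over the 6 arrays) and Apoa2 (5.71 to 6.38) were bright enough, while Alb, Serpina1a, Fgb and Cyp7a1 were too dim.

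Cholesterol is built from acetyl-CoA by a chain of enzymes in the cytosol and the endoplasmic reticulum. HMG-CoA is turned into mevalonate and then into isoprenoid units, which are joined into squalene, closed into the ring system of lanosterol and trimmed to cholesterol. The genes of the chain are targets of the transcription factor SREBP-2, which is released from the endoplasmic reticulum when membrane sterol is low and binds sterol regulatory elements together with NF-Y, a factor of CCAAT boxes, and Sp1, a factor of GC boxes. The small intestine makes cholesterol itself besides absorbing it from food and bile.

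The promoters of 6 of the 9 enzymes were found in the RefSeq promoter table (GRCm38.p6), each with 250 bases before and 50 after the transcript start. They were searched on both strands for the sterol regulatory element TCACNCCAC, the CCAAT box CCAAT, the GC box GGGCGG, and a repeat after 3 bases of the nuclear receptor half-site AGGTCA, as in many vitamin D response elements, with A or G allowed as base 1 of the half-site and G or T as base 3. All 6 held at least 1 CCAAT box and at least 1 GC box, where 37.4% and 35.7% of the 32851 promoters in the table held them. The promoter of Hmgcs1 held the sterol regulatory element, which 1.24% of all promoters held, with its first base 137 bases before the start. Of its 4 CCAAT boxes, the one nearest the gene lies after the start. None of the 6 held the repeat of half-sites, which 0.0396% of all promoters held. No match of one motif overlapped a match of another. Their GC content was between 52.3% in Idi1 and 71.0% in Lss. A match is only a run of letters, not a site shown to be bound. Sites that vary from the letters searched were not counted, so a promoter without a match is not shown to lack the element.

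The 250 bases before the start are given for 4 of them. Hmgcs1 was taken as the promoter with the match to the sterol element. Mvk and Hsd17b7 were taken because their arrays did not overlap between the genotypes, and Lss as an enzyme whose arrays did. The arrays of Cyp51 did not overlap either, and its promoter, not printed here, held 1 CCAAT box and 1 GC box. They run 5′ to 3′ on the strand of the gene. Capitals mark the sterol regulatory element and the CCAAT boxes, which read ATTGG where they lie on the other strand.
Hmgcs1 (GRCm38.p6, chr13:119690101-119690350, plus strand): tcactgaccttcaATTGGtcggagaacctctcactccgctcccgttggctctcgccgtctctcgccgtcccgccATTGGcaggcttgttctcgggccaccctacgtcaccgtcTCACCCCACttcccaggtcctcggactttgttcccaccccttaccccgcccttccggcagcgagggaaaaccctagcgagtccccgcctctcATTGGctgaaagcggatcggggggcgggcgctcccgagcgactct
Mvk (GRCm38.p6, chr5:114444019-114444268, plus strand): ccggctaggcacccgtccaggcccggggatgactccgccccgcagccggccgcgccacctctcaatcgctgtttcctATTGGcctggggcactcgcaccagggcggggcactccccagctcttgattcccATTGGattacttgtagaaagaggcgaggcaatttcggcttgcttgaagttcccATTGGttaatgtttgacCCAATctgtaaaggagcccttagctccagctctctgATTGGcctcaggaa
Lss (GRCm38.p6, chr10:76531355-76531604, plus strand): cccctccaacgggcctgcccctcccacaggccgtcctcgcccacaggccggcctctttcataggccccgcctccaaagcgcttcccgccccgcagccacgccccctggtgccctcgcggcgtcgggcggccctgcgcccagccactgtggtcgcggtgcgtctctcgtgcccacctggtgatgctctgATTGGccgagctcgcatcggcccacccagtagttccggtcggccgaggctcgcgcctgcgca
Hsd17b7 (GRCm38.p6, chr1:169969206-169969455, minus strand): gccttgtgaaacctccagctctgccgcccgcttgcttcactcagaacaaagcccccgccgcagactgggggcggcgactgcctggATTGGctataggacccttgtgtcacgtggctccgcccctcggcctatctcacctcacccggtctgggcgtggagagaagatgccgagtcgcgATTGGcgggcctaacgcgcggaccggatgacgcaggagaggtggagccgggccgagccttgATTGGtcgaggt

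**Figure D1:**
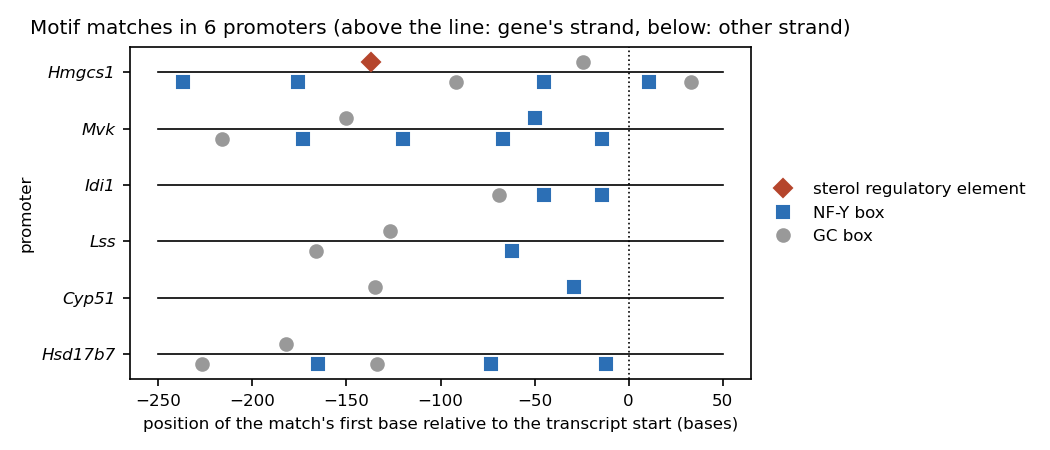
Matches of 3 motifs in the promoters of 6 cholesterol synthesis enzymes, by the distance of their first base from the transcript start in bases; marks above a line are on the strand of the gene and marks below it on the other strand. NF-Y boxes are the CCAAT boxes of the text. Hmgcs1 carries the only match to the letters TCACNCCAC searched as the sterol regulatory element; variants were not searched. Every line has at least 1 NF-Y box and at least 1 GC box.

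Marker genes of the cell types of the gut differed between arrays, and the enzymes are therefore given array by array. The 18 tested genes of the absorptive brush border had a mean level between 10.74 and 11.81 on VDR-null arrays and between 9.42 and 11.10 on wild-type arrays, highest on VDR-null replicate 1 and lowest on wild-type replicate 1. The 15 tested genes of cell division, out of 16 listed, ran the other way at these arrays, with mean levels of 8.52 to 9.05 on VDR-null and 8.79 to 9.23 on wild-type arrays. For Brunner gland and gastric-type mucosa, 4 of 7 listed genes were tested, and all 4 were lower in VDR-null duodenum. Their mean level was 5.97 to 6.87 on VDR-null and 6.69 to 8.20 on wild-type arrays, with a median difference of -1.26. Gkn3 read 6.93, 6.88 and 7.27 on VDR-null arrays and 8.35, 7.93 and 7.98 on wild-type arrays (limma adjusted p = 0.683). Whether the sampled stretch of gut differed was not tested. VDR-null replicate 3 carried pancreatic acinar transcripts such as Ctrb1 (11.06, against 6.19 to 8.57 on the other arrays) and less of the Y-linked Kdm5d (6.54, against 7.41 to 7.74). In tissue RNA, fewer cells of a type and less RNA per cell cannot be told apart. Vdr itself read 10.99, 10.86 and 10.85 on VDR-null arrays and 10.72, 10.95 and 11.11 on wild-type arrays; the labels do not say where its probes lie relative to the deleted part, so it does not check them.

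The enzymes of cholesterol synthesis did not pass the test between the genotypes. Hsd17b7, Mvk and Cyp51 differed most, at 1.25, 1.20 and 1.13 times the wild-type level, and their VDR-null arrays all lay above their wild-type arrays. Hmgcs1, Fdps, Fdft1, Sqle and Lss overlapped between the genotypes and differed by no more than 0.099 on the log2 scale in either direction. Differences were tested with limma across all 13174 genes with Benjamini-Hochberg adjustment at a threshold of 0.05. Of the 8 enzymes 0 passed, and 0% of all genes did, with 689 genes, or 5.23%, at an unadjusted p under 0.05. Hsd17b7 was the 1 enzyme of 8 under that unadjusted level, which 2.20% of all genes reached with a positive difference.

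The first enzyme measured, Hmgcs1, encodes the cytosolic synthase that makes HMG-CoA. It read 9.80, 9.19 and 9.38 on VDR-null replicates 1 to 3 and 9.46, 9.66 and 9.24 on wild-type replicates 1 to 3. The VDR-null arrays held both its highest and its lowest value, so the groups overlapped fully. The means were 9.46 ± 0.32 in VDR-null and 9.46 ± 0.21 in wild-type duodenum (SD, n = 3 each), and the 95% confidence interval of the difference was -0.44 to 0.44 (limma adjusted p = 0.999). Leaving out VDR-null replicate 1 gave a difference of -0.17, and leaving out replicate 2 of that genotype gave 0.13.

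Mvk encodes mevalonate kinase, which adds the first phosphate to mevalonate. It read 7.30, 6.96 and 7.02 on VDR-null arrays, against 6.85, 6.92 and 6.72 on wild-type arrays. VDR-null replicate 1 stood above the rest, and the groups were apart by only 0.048, less than the pooled standard deviation within a genotype of 0.15. Its log2 difference was 0.27 ± 0.12 (SE), with a 95% confidence interval of -0.014 to 0.55 (limma adjusted p = 0.683). Without VDR-null replicate 1 it was 0.16.

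Fdps encodes farnesyl diphosphate synthase, which joins the isoprenoid units, and Fdft1 encodes squalene synthase, which joins a pair of farnesyl groups head to head. Fdps read 9.33, 9.34 and 9.36 on VDR-null arrays and 9.58, 9.43 and 8.97 on wild-type arrays. The VDR-null arrays thus lay close together, with an SD of 0.017, and inside the wild-type range. Its difference was 0.018 ± 0.16 (SE), and 0.14 without wild-type replicate 1 or -0.16 without wild-type replicate 3. Fdft1 read 9.65, 9.37 and 9.53 on VDR-null arrays and 9.73, 9.69 and 9.43 on wild-type arrays. Its groups overlapped, with a difference of -0.099 ± 0.12 (SE; limma adjusted p = 0.788).

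Sqle encodes squalene monooxygenase, a rate-controlling step after HMG-CoA reductase, and Lss encodes lanosterol synthase, which closes the rings. Sqle read 8.35, 8.15 and 8.28 on VDR-null arrays and 8.53, 8.17 and 7.80 on wild-type arrays. The wild-type arrays held its highest and its lowest value, 0.74 apart or 1.66-fold, the widest range of the 8 enzymes. Its difference was 0.098 ± 0.18 (SE), with values of 0.28 and -0.086 without wild-type replicate 1 or 3. Lss read 7.50, 7.33 and 7.67 on VDR-null arrays and 7.77, 7.49 and 7.37 on wild-type arrays, which overlapped. Its difference was -0.046 ± 0.14 (SE), and 0.067 without wild-type replicate 1.

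Cyp51 and Hsd17b7 act on the sterol after ring closure, Cyp51 as lanosterol 14α-demethylase and Hsd17b7 as the 3-keto reductase that takes part in removing the methyl groups at carbon 4. Cyp51 read 7.56, 7.33 and 7.31 on VDR-null arrays and 7.27, 7.29 and 7.12 on wild-type arrays. The nearest arrays of the genotypes were 0.017 apart, and the difference was 0.17 ± 0.11 (SE), or 0.093 without VDR-null replicate 1. Hsd17b7 read 7.54, 7.20 and 7.37 on VDR-null arrays and 7.09, 7.13 and 6.92 on wild-type arrays. Here too VDR-null replicate 1 was highest and wild-type replicate 3 lowest, and the nearest arrays were 0.070 apart. The means of Hsd17b7 were 7.37 ± 0.17 in VDR-null and 7.05 ± 0.11 in wild-type duodenum (SD, n = 3 each). Its difference was 0.32 ± 0.12 (SE), with a 95% confidence interval of 0.044 to 0.60, an unadjusted limma p of 0.0292 and an adjusted p of 0.683, and it was between 0.24 and 0.41 when 1 array was left out.

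**Figure D2:**
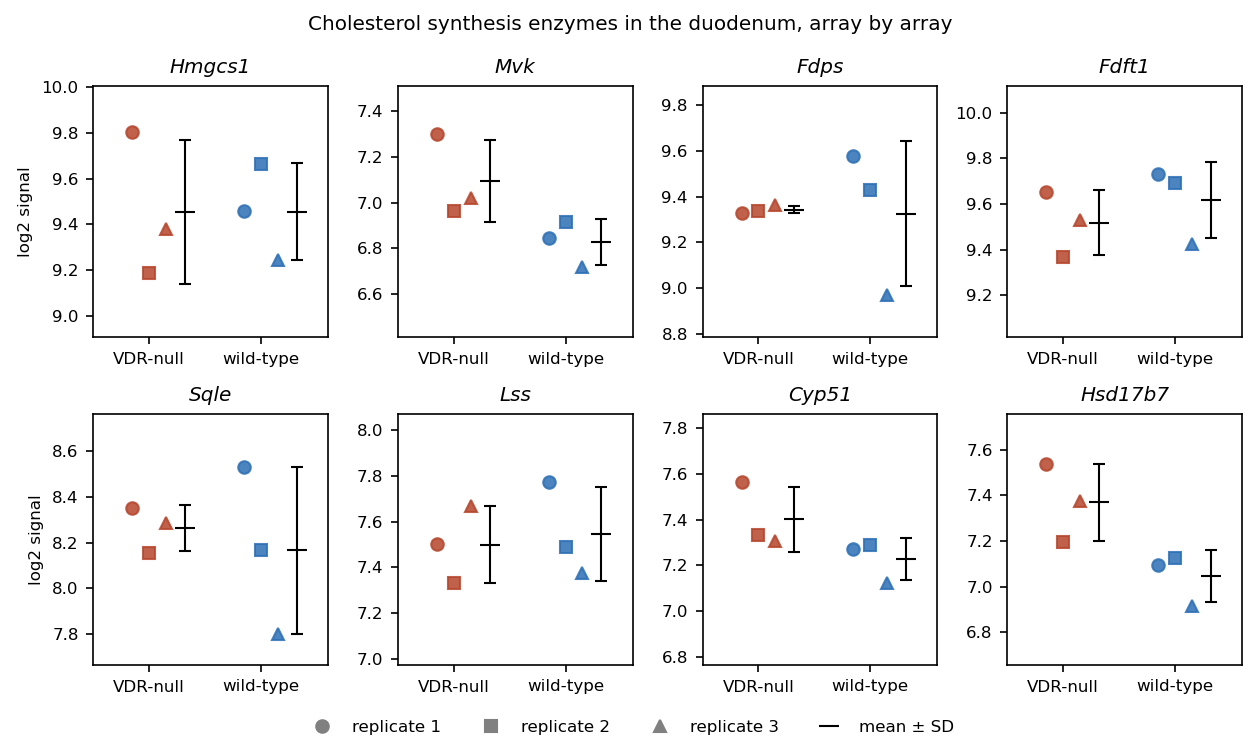
Log2 signal of each of the 8 enzymes on the 3 VDR-null arrays (left, red) and the 3 wild-type arrays (right, blue), with the mean ± SD of each genotype; every panel spans the same number of log2 units. Mvk, Cyp51 and Hsd17b7 have all VDR-null points above all wild-type points, by 0.017 to 0.070, and the other 5 enzymes overlap.

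In these 3 of 8 enzymes, or 37.5%, the VDR-null arrays lay wholly above the wild-type arrays, where 4.87% of all tested genes did, and 0 of 8 lay wholly below, where 6.22% of all genes did. The enzymes are not independent of each other, because the same array was highest and the same array lowest in all 3. They were also chosen with earlier results of these data known. Of the 9 other tested enzymes of the pathway, described below, 0 lay wholly above and 0 wholly below. Over the set, 5 of 8 differences were above 0, against 44.0% of all genes, and under other scalings of the arrays 4 to 6 were, since Hmgcs1 and Fdps lay close to 0. Single arrays moved the count further, to 3 of 8 without wild-type replicate 3 and to 7 of 8 without wild-type replicate 1 or without VDR-null replicate 2. The median difference of the 8 enzymes was 0.058, beside -0.026 over all genes tested. It ran from -0.096 without wild-type replicate 3 to 0.17 without wild-type replicate 1.

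The enzymes differed in the array on which they were highest, described here without a test because the division was read from the values. Hmgcs1, Mvk, Cyp51 and Hsd17b7 were highest on VDR-null replicate 1, at 0.25 to 0.35 above their own mean over the 6 arrays. Fdps, Fdft1, Sqle and Lss were highest on wild-type replicate 1, at 0.16 to 0.32 above theirs. Their whole profiles do not divide in the same way. Over the 6 arrays, on which all genes share samples and processing, Mvk, Cyp51 and Hsd17b7 correlated with each other at 0.92 to 0.98 (Pearson). Hmgcs1, however, correlated most with Fdft1, at 0.80, and with those 3 at 0.57 to 0.68. All 8 were below their own mean on wild-type replicate 3, by 0.14 (Fdft1) to 0.42 (Sqle), and 5 of the 8 were lowest there; Hmgcs1, Fdft1 and Lss were lowest on VDR-null replicate 2. The brush border list deviated by 0.92 on VDR-null replicate 1, -1.48 on wild-type replicate 1 and 0.08 on wild-type replicate 3. The macrophage list, 8 of 8 tested, lay at -0.27 on VDR-null replicate 1, 0.10 on wild-type replicate 1 and -0.44 on wild-type replicate 3. The B and plasma cell list, 5 of 7 tested, lay at -0.61, -0.053 and -0.62 on these arrays. The smooth muscle list, 10 of 10 tested, lay at -0.19, 0.30 and 0.40 on them. The T cell list, 7 of 8 tested, lay at 1.07, -1.24 and -0.35 on the same arrays. The Paneth cell list, 5 of 5 tested, lay at -0.63, 0.77 and -0.28. The mean level of the smooth muscle list was 9.48 to 9.49 on VDR-null arrays and 9.54 to 10.07 on wild-type arrays. These lists are a choice among the marker lists read, and their part in the enzyme values was not tested. The spread of the enzymes over the 6 arrays lay in the middle to upper part of all tested genes, with between 42.2% (Cyp51) and 78.3% (Sqle) of tested genes varying less.

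**Figure D3:**
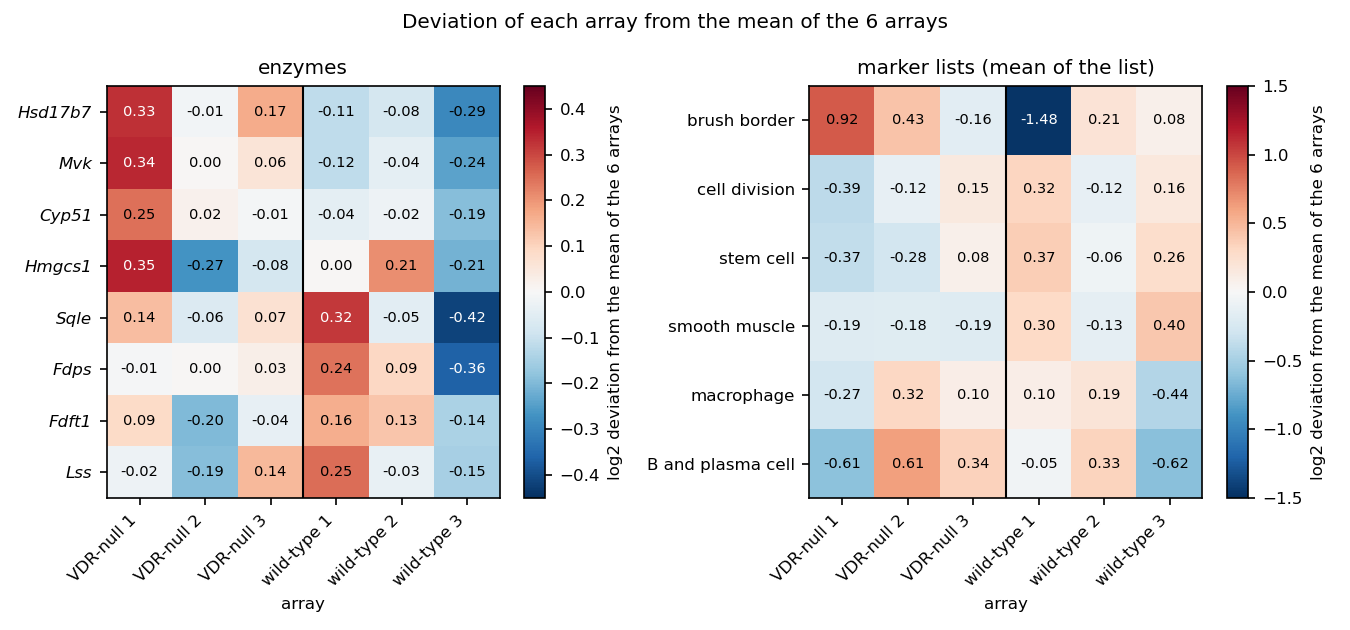
Deviation of each array from the mean of the 6 arrays on the log2 scale, for the 8 enzymes (left) and for the means of 6 marker lists (right, on a wider colour scale), with the VDR-null arrays in the 3 left columns. Every enzyme is negative on wild-type replicate 3, while the positive extremes of the enzymes are split between VDR-null replicate 1 and wild-type replicate 1.

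The rest of the pathway was read from a list of 12 other enzymes, of which 9 were tested and the others were not analysed here. None passed the limma threshold, and 8 of 9 differences were above 0, or 7 in a second quantile normalization and 6 without wild-type replicate 2 or 3, with a median of 0.17. In the mevalonate steps Pmvk, phosphomevalonate kinase, differed by 0.17 ± 0.17 (SE) and Mvd, which makes isopentenyl diphosphate, by 0.070 ± 0.10. After lanosterol, the sterol 4-methyl oxidase Msmo1 differed by 0.19 ± 0.15, its partner Nsdhl by 0.00043 ± 0.13, the isomerase Ebp by 0.17 ± 0.10, and the last reductase, Dhcr7, by 0.074 ± 0.14. Single arrays decided several of these values. Pmvk was at -0.019 without wild-type replicate 2, and Msmo1 at 0.038 without VDR-null replicate 1 and 0.00038 without both replicate 1 arrays. Dhcr7 was at -0.032 without VDR-null replicate 1 and -0.021 without wild-type replicate 3, and Nsdhl ran from -0.085 without VDR-null replicate 2 to 0.10 without wild-type replicate 1. Sc5d, which desaturates the sterol ring at carbon 5, had the largest difference of the pathway. It read 9.94, 9.57 and 9.13 on VDR-null arrays and 8.90, 9.33 and 9.31 on wild-type arrays, with the extremes at the same arrays as the brush border list. Its difference was 0.37 ± 0.22 (limma adjusted p = 0.683), and 0.029 without both replicate 1 arrays.

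The pair of enzymes that can both reduce the sterol at carbon 14 differed in opposite directions, neither past the threshold. Tm7sf2 read 7.53, 7.16 and 7.10 on VDR-null arrays and 6.88, 7.33 and 7.04 on wild-type arrays, a difference of 0.18 ± 0.16 (SE). Lbr, which also anchors chromatin at the nuclear envelope, read 9.38, 9.55 and 9.92 on VDR-null arrays and 10.07, 9.66 and 9.72 on wild-type arrays, a difference of -0.20 ± 0.17. Both groups of arrays overlapped in each gene. Without both replicate 1 arrays the differences were -0.062 for Tm7sf2 and 0.041 for Lbr, each with the opposite sign.

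Along the whole chain, 13 of 17 tested enzymes differed by more than 0, with a median of 0.098. Without wild-type replicate 3 these were 9 of 17 and 0.026. Up to lanosterol 5 of 8 were above 0 with a median of 0.044, and after lanosterol 8 of 9 were with a median of 0.17, a division made after the values were seen and not tested. Without both replicate 1 arrays the medians were 0.11 up to lanosterol and 0.041 after it, so the order turned round. Without wild-type replicate 3 they were -0.096 and 0.15, with 3 of 8 and 6 of 9 above 0.

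**Figure D4:**
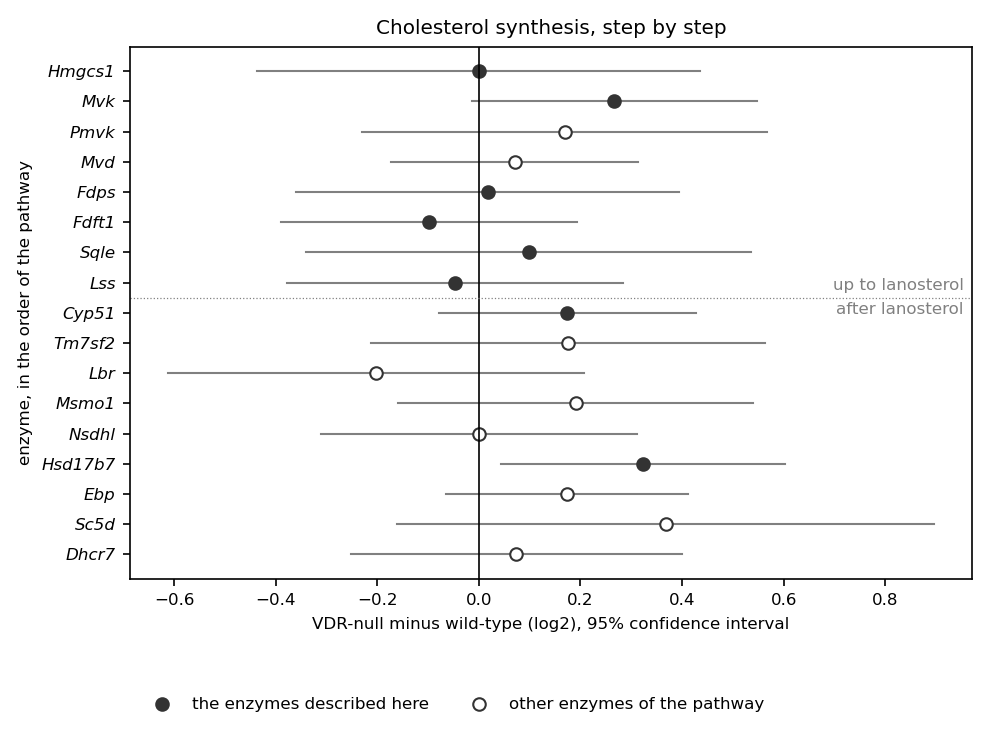
VDR-null minus wild-type difference on the log2 scale with its 95% confidence interval for 17 enzymes in the order of the pathway, from Hmgcs1 at the top to Dhcr7 at the bottom; filled points are the 8 enzymes of the set and open points the other 9. Only the interval of Hsd17b7, 0.044 to 0.60, leaves out 0 before adjustment.

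Genes that sense sterol showed no difference past the threshold. Srebf2, which encodes SREBP-2, read 9.67, 9.57 and 9.75 on VDR-null arrays and 9.69, 9.76 and 9.51 on wild-type arrays, which overlapped. Its 95% confidence interval was -0.24 to 0.25. Insig1, which holds the SREBP complex in the endoplasmic reticulum and is itself an SREBP target, read 10.23, 9.53 and 9.66 on VDR-null arrays and 9.85, 9.75 and 9.71 on wild-type arrays. It was highest on VDR-null replicate 1, as Hmgcs1 was, and its difference was 0.033 ± 0.18 (SE), or -0.18 without that array. The escort protein Scap differed by -0.015 ± 0.11, Srebf1 by -0.030 ± 0.10 and Insig2 by -0.033 ± 0.14. The proteases that release SREBPs differed by -0.11 ± 0.10 (Mbtps1) and -0.16 ± 0.13 (Mbtps2), and the ubiquitin ligases Rnf139 and Rnf145 by 0.062 ± 0.11 and -0.15 ± 0.11. Without both replicate 1 arrays Mbtps2 was at 0.036, Rnf145 at 0.0026 and Scap at 0.099. Of the 9 tested genes of this list, out of 11, 3 were above 0 and the median was -0.030.

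Among other sterol-regulated genes, Stard4, a cytosolic sterol carrier, read 8.50, 7.81 and 8.01 on VDR-null arrays and 7.91, 7.94 and 7.87 on wild-type arrays. One VDR-null array set its difference, which was 0.20 ± 0.17 (SE) and 0.0039 without VDR-null replicate 1; with array weights it was -0.0039. Tmem97, a sterol-binding membrane protein, differed by -0.16 ± 0.15, or 0.046 without both replicate 1 arrays, and Npc1, the lysosomal cholesterol exporter, by 0.089 ± 0.14, or -0.050 without wild-type replicate 3.

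Genes that use the isoprenoids of the pathway for other ends, such as protein prenylation, dolichol and ubiquinone, were centred on 0, with 7 of 13 above 0 and a median of 0.0052. The smallest unadjusted p among them belonged to Icmt, which methylates prenylated proteins (0.17 ± 0.10, SE), and Nus1, a dolichol synthesis subunit (0.13 ± 0.10). Fatty acid synthesis and desaturation, driven largely by SREBP-1, had 3 of 10 tested genes above 0 and a median of -0.19. The desaturase Fads1 read 9.79, 10.30 and 10.47 on VDR-null arrays and 10.80, 10.44 and 10.62 on wild-type arrays, which overlapped. Its difference was -0.43 ± 0.19 (limma adjusted p = 0.683), and -0.15 without both replicate 1 arrays. Acaca, acetyl-CoA carboxylase, differed by -0.21 ± 0.11, and by -0.10 without them. For sterol uptake and efflux, 5 of 8 tested genes were above 0, with Npc1l1, the sterol importer of the brush border, at 0.82 ± 0.43 and 0.066 without both replicate 1 arrays, and the liver X receptor gene Nr1h3 at 0.28 ± 0.16. No gene of these lists passed the threshold, where 0% of all genes did.

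**Figure D5:**
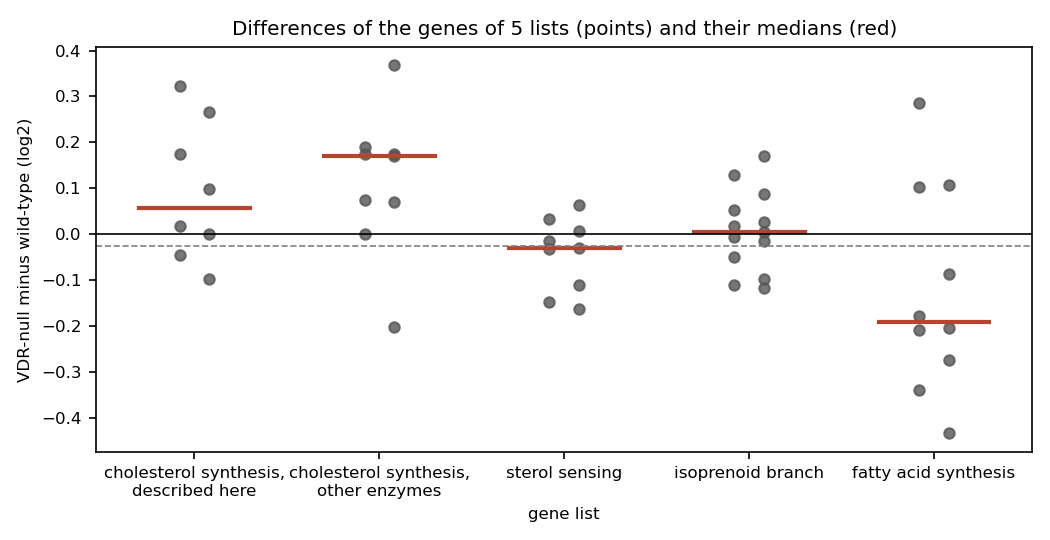
VDR-null minus wild-type differences on the log2 scale of the tested genes (points) of 5 lists, with the median of each list in red and the median of all 13174 tested genes, -0.026, as a dashed line. The medians are 0.058 and 0.17 for the cholesterol synthesis lists, -0.030 for sterol sensing, 0.0052 for the isoprenoid branch and -0.19 for fatty acid synthesis.

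Outside all lists, the genes whose profile over the 6 arrays was most like the mean profile of the 8 enzymes were Tecpr1, Smurf2, Sem1, Mycbp and Trappc11, with Pearson correlations of 0.97, 0.97, 0.97, 0.96 and 0.96. These are the highest of 13174 values over only 6 arrays, which share the same samples and the same processing, and carry no p. Of the pathway genes outside the set, Rnf139 (0.89) and Dhcr7 (0.88) were the most alike, followed by Srebf1 (0.79) and Srebf2 (0.74), while the lowest were Scap (-0.46), Tmem97 (-0.25), Mbtps2 (-0.25) and Ebp (-0.22). The correlations of the 8 enzymes themselves, 0.61 for Lss to 0.88 for Sqle, include each enzyme in the mean.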

How the data were processed

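Total RNA of 6 duodenum samples was labelled with biotin and hybridised to 1 array each, per the labels' protocols. The authors deposited a log2 signal for every probe set on every array. Per the submitters' processing notes these come from RMA in Affymetrix Expression Console, which corrects background, quantile-normalizes and summarises probes; no version is given. Base 2 follows from RMA and from values of 1.99 to 13.8. Of 41345 probe sets, the annotation gave 23521 a single symbol, 1814 several and 16010 none, and each gene took its brightest single-symbol probe set by mean.

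The main test was limma 3.58.1 under R 4.3.3, with lmFit, eBayes and no covariate, on every gene past the brightness filter; 0 genes passed. Differences are VDR-null minus wild-type. Within a genotype the SD of the typical (median) gene was 0.15, and the number of arrays limits the precision. No scan date or batch is given in the labels or the table. The procedure was tested on simulated data with noise drawn independently for each gene and planted changes larger than the differences of the enzymes. The simulation does not cover changes as small as theirs or noise shared between genes. The enzymes and lists were chosen with earlier results of these data known. Named genes are all tested genes of the pathway, sensing and target lists, the 2 of smallest p in each further pathway list, Vdr, and the 5 of most similar profile; marker genes named as examples of their lists were chosen after their values were seen. Alternatives are given under the closing section.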

Additional observations from a re-analysis of the deposited data

How the results depend on the processing

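The 18 alternatives covered the filter on dim genes, the scaling of the arrays, the prior for the spread, array weights, a replicate block, the choice of probe set, all probe sets, each array left out and both replicate 1 arrays left out. In each of them limma called 0 genes, 0 of the 8 enzymes and 0 of the 9 other enzymes, with 284 to 2718 genes at an unadjusted p under 0.05. Mvk, Cyp51, Hsd17b7 and Fdft1 kept the sign of their difference in all 18, and Hmgcs1, Fdps, Sqle and Lss did in 12, 16, 17 and 15. The adjusted p of the 8 enzymes ran from 0.221 (Hsd17b7) to 0.999.

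The median of the 8 enzymes ran from -0.096 to 0.17 when 1 array was left out, and that of the 9 other enzymes, 0.17 with all arrays, from 0.068 to 0.16; without both replicate 1 arrays these were 0.13 and 0.041. The cause was not tested. Cyclic loess gave 0.085 and 0.20, and array weights 0.16 and 0.13.

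With the replicate number as a block the medians were 0.058 and 0.17, no gene passed, and 338 genes, against 689 without it, had an unadjusted p under 0.05. Deviations of same-numbered arrays correlated at -0.62, 0.19 and -0.26, and those of differently numbered arrays at -0.60 to 0.68. Each deviation is from the mean of the same 3 arrays, which ties these values together. They therefore cannot show whether samples were paired. The number of arrays, 3 a genotype, limits the precision of each difference.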
